A study of Rattus norvegicus with 8 samples.

Results

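A set of 10 early response feedback genes was followed through immune cells of rat liver that were sequenced fresh and after cryopreservation. They were the MAP kinase phosphatases Dusp1 and Dusp2, the mRNA decay factors Zfp36 and Btg2, the immediate early response genes Ier2 and Ier3, the NF-kB inhibitor Nfkbia, the nuclear receptor Nr4a1 and the Krüppel-like factors Klf2 and Klf6. The genes were chosen from measured values, with their change after cryopreservation in these same libraries in view, so that this change is described here without a test. Of the 32754 gene rows of the count tables, 9 belonged to them, since Ier2 has no row under that symbol. Klf2 had 0 to 14 UMIs (unique molecular identifiers, 1 per captured transcript) per library and was too low to be tested. The remaining 8 genes had enough counts.

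Early response genes are switched on within minutes by growth factors, cytokines or stress, without new protein being made first. Part of this wave is built to end it: DUSP phosphatases switch off MAP kinases, ZFP36 (tristetraprolin) binds AU-rich mRNAs and brings them to decay, BTG2 recruits the machinery that removes poly(A) tails, and the Nfkbia product IκBα holds NF-kB in the cytoplasm. In macrophages and lymphocytes these genes are textbook brakes on inflammatory signals.

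Cells came from the livers of 4 male Han Wistar rats. Animals NC1 and NC2 had received a choline-sufficient, amino acid-defined diet (CSAA, the negative control), and animals PC1 and PC2 the choline-deficient counterpart (CDAA, the positive control), a diet that is used as a model of fatty liver disease. Each animal gave 1 Chromium library of fresh cells and 1 library of cells kept in DMSO for 3 weeks, which makes 8 libraries. Fresh and stored cells of an animal were run at different times. Only the stored cells were thawed, diluted stepwise in warm medium with serum and washed again. Run, thawing and storage therefore cannot be told apart, and a change after storage means all of these together. With 2 animals per diet, the diets are compared on very few individuals, and feeding time and age are not given in the sources used here.

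The libraries held 18338700 to 26471843 UMIs. Barcodes with at least 500 UMIs were taken as cells, 4327 to 4771 in fresh and 3673 to 4481 in DMSO libraries, with medians of 3339 to 4309 UMIs. Any pair of libraries had 13 to 36 cell barcodes in common, at most 0.809% of the smaller library. Red cell transcripts stood apart in 1 library: their markers summed to 362 CPM (UMIs scaled to a common library size) in the DMSO library of NC1, against 0.271 to 8.01 in the other 7. Markers of basophils or mast cells were at 5.91 to 44.4 CPM in fresh and 0.376 to 4.02 in DMSO libraries, and hepatocyte markers at 6.36 to 19.3 and 1.44 to 5.15. Neutrophil markers were also higher in fresh libraries (34.4 to 48.1) than in DMSO libraries (21.8 to 29.2). Their part in the results was not tested.

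Promoter sequences were looked at first, sorted by the change after storage that is described below. The windows run from 250 bases before to 50 bases after the transcription start and come from the RefSeq annotation of GRCr8. The table held them for 8 of the 10 genes, of which 6 are printed. The first 4 sequences belong to the genes that were higher after storage, and the last 2 to genes that were not. Capitals mark each match to a CRE (TGACGTCA, bound by CREB), a CRE half-site (TGACG), a CArG box (bound by SRF), an NF-kB site or an AP-1 site (TGANTCA), searched on both strands. A half-site lies within each end of a full CRE and is then counted in both.
Dusp1, chr10:17184603-17184902, plus strand: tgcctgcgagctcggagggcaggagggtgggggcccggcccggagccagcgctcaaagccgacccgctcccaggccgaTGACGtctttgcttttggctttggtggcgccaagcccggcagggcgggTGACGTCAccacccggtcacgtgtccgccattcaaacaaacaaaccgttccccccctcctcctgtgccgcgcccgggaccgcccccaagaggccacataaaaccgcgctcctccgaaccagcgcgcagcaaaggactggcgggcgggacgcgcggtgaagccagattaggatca
Btg2, chr13:48087641-48087940, minus strand: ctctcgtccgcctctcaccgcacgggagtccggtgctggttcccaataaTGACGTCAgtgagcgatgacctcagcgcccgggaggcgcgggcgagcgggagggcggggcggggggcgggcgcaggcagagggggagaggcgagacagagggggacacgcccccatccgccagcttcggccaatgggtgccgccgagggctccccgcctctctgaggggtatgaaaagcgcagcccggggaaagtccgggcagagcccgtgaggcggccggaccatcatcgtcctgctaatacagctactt
Zfp36, chr1:92799059-92799358, minus strand: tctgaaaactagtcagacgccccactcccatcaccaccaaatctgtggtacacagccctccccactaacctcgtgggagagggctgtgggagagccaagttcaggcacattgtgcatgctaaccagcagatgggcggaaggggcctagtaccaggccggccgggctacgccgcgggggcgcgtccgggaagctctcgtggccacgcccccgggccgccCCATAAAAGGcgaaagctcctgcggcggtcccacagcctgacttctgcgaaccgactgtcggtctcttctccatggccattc
Klf6, chr17:69458429-69458728, minus strand: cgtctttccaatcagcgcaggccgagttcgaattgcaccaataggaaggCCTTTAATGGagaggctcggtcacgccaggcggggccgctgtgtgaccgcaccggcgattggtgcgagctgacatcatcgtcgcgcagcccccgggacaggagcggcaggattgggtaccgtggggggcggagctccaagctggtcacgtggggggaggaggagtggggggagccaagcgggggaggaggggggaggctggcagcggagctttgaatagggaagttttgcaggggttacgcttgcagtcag
Nfkbia, chr6:78597023-78597322, minus strand: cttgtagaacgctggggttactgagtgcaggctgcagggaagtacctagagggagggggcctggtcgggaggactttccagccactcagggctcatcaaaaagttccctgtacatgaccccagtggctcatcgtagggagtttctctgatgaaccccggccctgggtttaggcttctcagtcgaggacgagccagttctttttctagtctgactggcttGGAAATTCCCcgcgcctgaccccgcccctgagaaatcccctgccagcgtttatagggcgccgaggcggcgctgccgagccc
Nr4a1, chr7:134259888-134260187, plus strand: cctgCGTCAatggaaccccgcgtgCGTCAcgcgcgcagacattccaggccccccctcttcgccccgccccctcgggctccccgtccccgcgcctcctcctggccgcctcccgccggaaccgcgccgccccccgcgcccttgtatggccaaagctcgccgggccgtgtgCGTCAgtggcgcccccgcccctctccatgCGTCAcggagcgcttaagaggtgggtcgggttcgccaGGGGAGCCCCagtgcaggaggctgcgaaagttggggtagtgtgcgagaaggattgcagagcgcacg

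A full CRE was found in 1.83% of all 33469 promoter windows and in 3 of the 8. It began 124 bases before the start of Dusp1, 201 bases before that of Btg2 and 66 bases before that of Ier2, the gene without a row, whose window is not printed. A CArG box, found in 1.64% of all windows, began 32 bases before the start of Zfp36 and 201 bases before that of Klf6. The other 3 windows, those of Dusp2, Nfkbia and Nr4a1, held neither. Nr4a1 had 4 separate half-sites, which 21.2% of all windows carry at least once. NF-kB sites (7.51% of all windows) were found in Nfkbia and Nr4a1 and AP-1 sites (7.33%) in none of the 8. Among 52 windows of the other feedback genes described below, 1 had a full CRE and 1 a CArG box. These are matches of letters and not sites of binding, and their relation to the change after storage was not tested.

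Dusp1, whose product dephosphorylates p38, JNK and ERK, had the largest difference of the 8 genes. Its level in fresh libraries was 111, 59.5, 68.1 and 58.6 CPM, with animals in the order NC1, NC2, PC1 and PC2. In DMSO libraries it was 550, 571, 250 and 420. The levels of the fresh and of the DMSO libraries did not overlap, and PC1 had the smallest step. The log2 fold change was 2.57 (standard error 0.19), which is 5.94-fold, and each animal's own difference lay between 1.88 and 3.26. All values of this kind come from UMIs summed over the cells of a library and scaled by TMM, and such sums do not tell more positive cells from more transcripts per cell.

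Dusp2, a nuclear phosphatase of lymphocytes and the other member of that family among the 10 genes, went the other way. It was at 29.2, 26.3, 24.7 and 20.7 CPM in the fresh libraries of NC1, NC2, PC1 and PC2, and at 17.6, 17.9, 20.5 and 19.0 in the DMSO libraries. Each animal had less after storage, and the highest DMSO library lay just below the lowest fresh one. The log2 fold change was -0.41 (standard error 0.10), or 0.751-fold, so that the 2 phosphatase genes differed in direction in 4 of 4 animals.

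Zfp36 was at 159.5, 100.6, 125.8 and 115.8 CPM in the fresh libraries of NC1, NC2, PC1 and PC2. After DMSO storage it was at 362, 478, 281 and 338. The groups did not overlap, and the log2 fold change of Zfp36 was 1.53 (standard error 0.15). Btg2 had 489, 340, 317 and 305 CPM in fresh and 721, 777, 522 and 556 in DMSO libraries, again without overlap. Its log2 fold change was 0.83 (standard error 0.09). Klf6, a zinc finger factor that is induced by injury in liver cells, was at 58.5, 55.9, 50.0 and 53.3 in fresh libraries, the smallest ratio of highest to lowest among the 8 genes, and at 139, 181, 91.6 and 146 in DMSO libraries. Its log2 fold change was 1.32 (standard error 0.11). NC2 had the largest step of all 4 genes that were higher, Dusp1, Zfp36, Btg2 and Klf6, PC1 had the smallest in Dusp1, Zfp36 and Klf6, and NC1 in Btg2.

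The remaining 3 genes showed no common direction. Nfkbia was at 427 and 373 CPM in the fresh libraries of NC1 and NC2 and at 693 and 676 in those of PC1 and PC2. In the DMSO libraries it was at 488.5, 457, 540.1 and 593. It was thus higher after storage in both CSAA animals and lower in both CDAA animals, and the overall log2 fold change was -0.02 (standard error 0.10). Nr4a1, an orphan nuclear receptor, had 237, 119.5, 217 and 186.5 CPM in fresh and 246.5, 163, 158 and 205 in DMSO libraries. The groups overlapped, and its log2 fold change was 0.04. Ier3, a regulator of cell survival, ranged from 4.24 to 9.79 CPM before and from 5.68 to 12.0 CPM after storage, higher in 2 of 4 animals.

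Over all 12163 genes tested, 4.32% were called higher and 3.92% lower after storage (edgeR, adjusted p under 0.05), and 0.296% were called higher by at least 2-fold. By the same rules 4 of the 8 genes were higher, 3 of them by at least 2-fold, and 1 was lower. Since the genes were chosen from this comparison, nothing is read from these counts. Without NC1, whose DMSO library held the red cell transcripts, the log2 fold changes were 2.65 for Dusp1, 1.64 for Zfp36, 1.34 for Klf6, 0.92 for Btg2 and -0.32 for Dusp2, and those of Nfkbia, Nr4a1 and Ier3 were -0.10, 0.03 and 0.19.

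**Figure D1:**
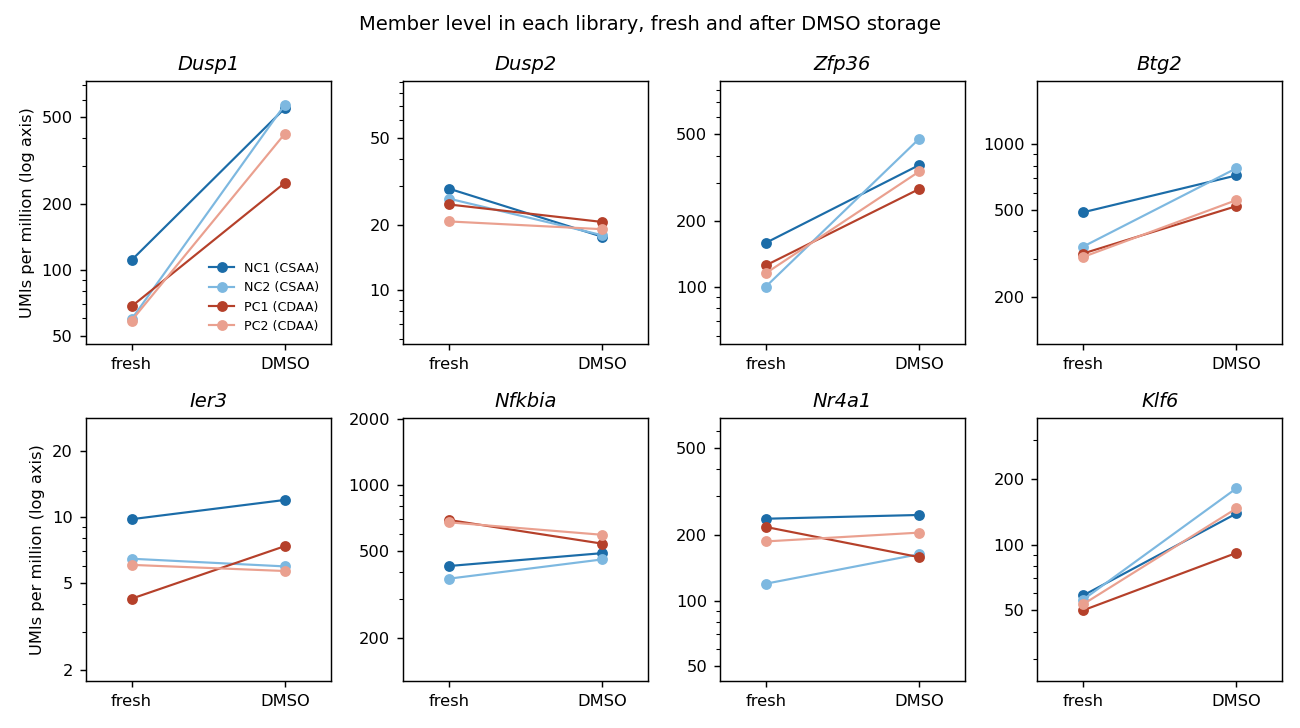
Level of the 8 measured genes in each library, in CPM on a log axis, with a line joining the fresh and DMSO library of each animal. All panels span the same ratio, so slopes can be compared: Dusp1 (log2 fold change 2.57), Zfp36 (1.53), Klf6 (1.32) and Btg2 (0.83) rise in 4 of 4 animals and Dusp2 (-0.41) falls in 4 of 4. Nfkbia rises in both CSAA and falls in both CDAA animals.

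Counted per cell, more barcodes carried these transcripts after storage. Each barcode was thinned to 1000 UMIs for this, which left out 238 to 427 shallower barcodes per library. Dusp1 was found in 7.47% ± 1.74 of the fresh and 31.0% ± 5.92 of the DMSO barcodes (SD, n = 4 libraries each). The share of Zfp36 went from 11.9% ± 1.92 to 30.4% ± 5.09, that of Klf6 from 6.06% ± 0.244 to 13.1% ± 2.81 and that of Btg2 from 30.9% ± 4.61 to 47.4% ± 5.32. Without thinning, Dusp1 was seen in 15.7% to 26.1% of fresh and 52.2% to 62.1% of DMSO barcodes. The UMIs per positive barcode also differed: a barcode with Dusp1 held 1.196 ± 0.110 of its UMIs per 1000 in fresh and 1.86 ± 0.276 in DMSO libraries, while for Klf6 the numbers were 1.05 ± 0.0031 and 1.15 ± 0.045. Nfkbia was found in 40.5% ± 10.5 of fresh and 39.8% ± 4.60 of DMSO barcodes, and Nr4a1 in 17.8% ± 4.27 and 18.4% ± 3.49.

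Transcripts of these genes were also counted together within each barcode. At 1000 UMIs, 5.56% to 12.9% of fresh barcodes had at least 3 of the 9 genes with a row, and 19.6% to 31.9% of DMSO barcodes. None of Dusp1, Zfp36, Btg2 and Klf6 was seen in 47.1% to 58.8% of the fresh and 20.1% to 34.4% of the DMSO barcodes, and all 4 together in 0.024% to 0.0734% and 0.626% to 1.90%. How far these joint shares follow from the share of each gene alone was not tested.

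**Figure D2:**
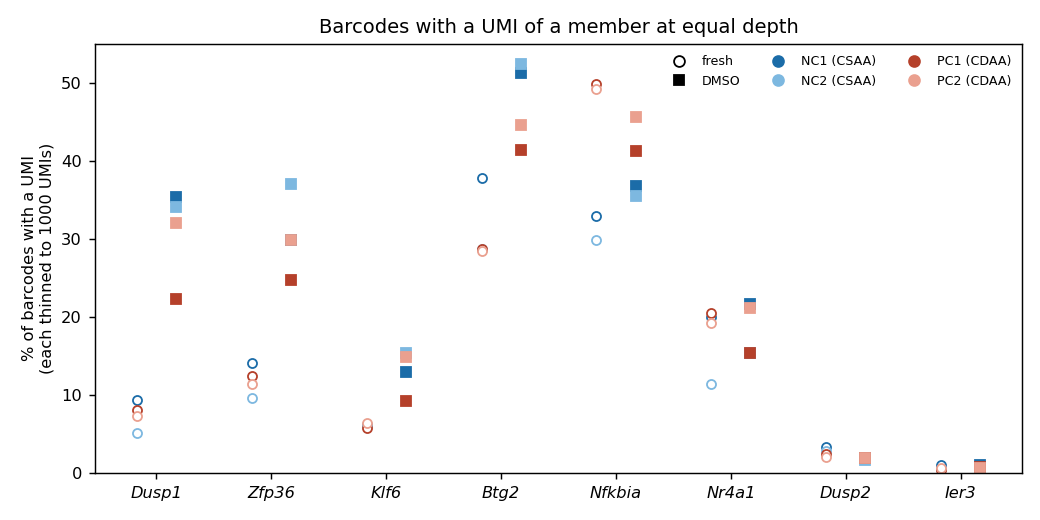
Percentage of barcodes with at least 1 UMI of each gene after every barcode was thinned to 1000 UMIs, 4 fresh libraries (open circles) and 4 DMSO libraries (squares), coloured by animal. The shares of Dusp1, Zfp36, Klf6 and Btg2 lie higher in every DMSO library than in any fresh one, those of Nfkbia and Nr4a1 overlap, and Ier3 stays at or below 1.06%.

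Free RNA carried the same transcripts. In barcodes with 1 to 100 UMIs, taken as free of cells, Dusp1 had 62.8 to 121 CPM before and 269 to 606 CPM after storage, 0.903 to 1.22 and 0.851 to 1.13 times its level in cells of the same library. Zfp36 (1.001 to 1.47 times in DMSO libraries) and Nfkbia (1.08 to 1.27 times) were similar. Dusp2 was at 0.822 to 1.02 times the level of cells in fresh and 1.13 to 1.496 times in DMSO libraries. Btg2 was below cells in each library, at 0.852 to 0.903 times in fresh and 0.72 to 0.888 times in DMSO libraries. Klf6 was lowest, at 0.492 to 0.673 times the level of cells in fresh and 0.441 to 0.473 times in DMSO libraries. No lineage studied here is known to lack these genes, so the shares above have no empty cell type to be set against, and free RNA as a part of them was not tested.

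The same genes were next compared between cell lineages in the fresh libraries. A barcode was assigned to a lineage when it had a UMI of 1 marker and none of the other 6: Clec4f (Kupffer-like), Clec4a3 (nonclassical monocyte and macrophage marker, here Clec4a3 myeloid), Vcan (classical monocyte-like), Siglech (plasmacytoid dendritic-like), Cd79a (B-like), Cd3e (T-like) or Ncr1 (NK-like). This took in 35.0% to 41.2% of the barcodes of a library and 23 to 640 barcodes per lineage. Of the further markers of each lineage, 3 to 6 were at least 2-fold above the other lineages, and their sum was 2.18-fold (Clec4a3 myeloid) to 18.1-fold (B-like) higher. Gates of 1 UMI let in barcodes of other lineages, so values are also given for a panel gate that was added after the data had been seen. It summed the gate gene and the further markers and demanded 3 times the expected UMIs and 2 times those of the next lineage, so that the marker sums of 5.88-fold to 35.1-fold it gave were set by the gate and are no check of it. The panel of classical monocytes includes S100a8 and S100a9, which neutrophils also express.

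By single markers, Dusp1 was called higher in Clec4a3 myeloid and classical monocyte-like barcodes and Dusp2 in NK-like and T-like barcodes. Fresh Dusp1 was at 146 ± 39.1 CPM in Clec4a3 myeloid (SD, n = 4 animals) and 138 ± 112 in classical monocyte-like barcodes. It was at 78.5 ± 24.6 in B-like, 69.1 ± 16.0 in Kupffer-like, 66.7 ± 21.6 in plasmacytoid dendritic-like, 55.2 ± 20.8 in T-like and 40.7 ± 22.7 in NK-like barcodes. The top 2 lineages kept their order in 3 of 4 animals. B-like barcodes were above Kupffer-like ones, and Kupffer-like above plasmacytoid dendritic-like ones, in 2 of 4 each. Fresh Dusp2 was highest in NK-like (47.5 ± 11.1) and T-like barcodes (37.1 ± 13.4), in that order in 4 of 4 animals, and lowest in Clec4a3 myeloid (10.5 ± 2.0998). Against the mean of the other lineages, Dusp1 was higher in Clec4a3 myeloid (log2 difference 1.16, standard error 0.13, adjusted p = 9.08e-10, edgeR with animals as a block) and lower in NK-like barcodes (-1.11, adjusted p = 8.55e-08). Dusp2 was higher in NK-like (1.26, adjusted p = 1.03e-09) and T-like barcodes (0.96, adjusted p = 1.36e-05) and lower in Clec4a3 myeloid (-1.01, adjusted p = 0.000409), B-like (-0.88, adjusted p = 0.0164) and plasmacytoid dendritic-like barcodes (-0.80, adjusted p = 0.000838). In the last of these Dusp1 was at -0.28 (adjusted p = 0.136).

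With the panel gate, fresh Dusp1 was at 157 ± 153 in Kupffer-like, 143 ± 33.5 in Clec4a3 myeloid and 141 ± 111 in classical monocyte-like barcodes, whose order was not stable, and at 17.4 ± 6.53 to 27.9 ± 6.31 in the 4 lymphoid and plasmacytoid lineages. The classical monocyte-like level exceeded the B-like level, the highest of those 4, in 4 of 4 animals. Dusp2 was at 53.3 ± 8.58 in NK-like and 50.2 ± 19.7 in T-like barcodes and at most 22.8 ± 9.27 elsewhere. Both genes were then called lower in plasmacytoid dendritic-like barcodes, Dusp1 by a log2 difference of -1.76 (adjusted p = 0.000183, edgeR) and Dusp2 by -1.23 (adjusted p = 0.00182). Dusp1 was also called higher in Kupffer-like barcodes (1.54, adjusted p = 4.64e-06, edgeR), where the single marker had given -0.07 (adjusted p = 0.973). It was called lower in B-like (-1.04, adjusted p = 0.0212, edgeR) and T-like barcodes (-1.18, adjusted p = 0.00345). The difference of Dusp1 in NK-like barcodes was -1.03, and the lower call of Dusp2 in B-like barcodes was lost (-0.44, adjusted p = 0.309).

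Zfp36 was highest in classical monocyte-like barcodes, at 268 ± 122 CPM, above the next lineage in 4 of 4 animals, and lowest in NK-like ones at 89.0 ± 11.4. The classical monocyte-like level was 1.03 above the mean of the other lineages on the log2 scale (adjusted p = 6.55e-08, edgeR), and the NK-like level 0.74 below it (log2 difference -0.74, adjusted p = 9.21e-08). Btg2 followed another order, with its highest level in B-like barcodes (530 ± 103, log2 difference 0.55, adjusted p = 6.15e-07, edgeR) and its lowest in NK-like ones (261 ± 62.1, -0.67, adjusted p = 3.69e-09). Klf6 was nearly level, between 50.7 ± 8.25 in classical monocyte-like and 68.1 ± 12.6 in Clec4a3 myeloid barcodes, and only the latter was called (0.38, adjusted p = 0.00641). This Klf6 call was lost with the panel gate (0.08, adjusted p = 0.732). Classical monocyte-like barcodes then had the highest mean (61.4 ± 17.5) and were called higher (0.36, adjusted p = 0.0126), where the single marker had given -0.23 (adjusted p = 0.562).

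Nfkbia and Nr4a1 both peaked in Clec4a3 myeloid barcodes. Nfkbia was there at 1093 ± 220 CPM, above B-like barcodes (700 ± 269) in 4 of 4 animals, and lowest in NK-like barcodes (377 ± 111). Nr4a1 was at 398 ± 73.6 in Clec4a3 myeloid and 299 ± 108 in classical monocyte-like barcodes, in that order in 4 of 4 animals, and at 142 ± 38.3 in NK-like ones. Both Clec4a3 myeloid levels were above the mean of the other lineages, by 1.12 for Nfkbia (adjusted p = 1.65e-14, edgeR) and 1.02 for Nr4a1 (adjusted p = 1.17e-10). With the panel gate these became 1.55 and 1.89. The lower call of Nr4a1 in NK-like barcodes (-0.73) turned to 0.32 (adjusted p = 0.183) with the panel gate, and the higher call of Nfkbia in B-like barcodes (0.30) to -0.16 (adjusted p = 0.435). Both were thus no longer called. Ier3, too low to be tested by single markers, was at 33.1 ± 22.4 CPM in Kupffer-like barcodes by the panel gate against 1.27 to 10.5 in the other 6.

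In all, 27 of 49 combinations of gene and lineage were called, 12 higher and 15 lower. Without animals as a block 14 were called. Of the 7 genes tested, 6 were called in NK-like barcodes, where 34.4% of all 6979 genes were called. The numbers were 5 in Clec4a3 myeloid (29.0% of all genes), 4 in plasmacytoid dendritic-like (23.7%), 4 in T-like (16.0%), 3 in B-like (11.5%), 4 in classical monocyte-like (8.94%) and 1 in Kupffer-like barcodes (1.82%).

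**Figure D3:**
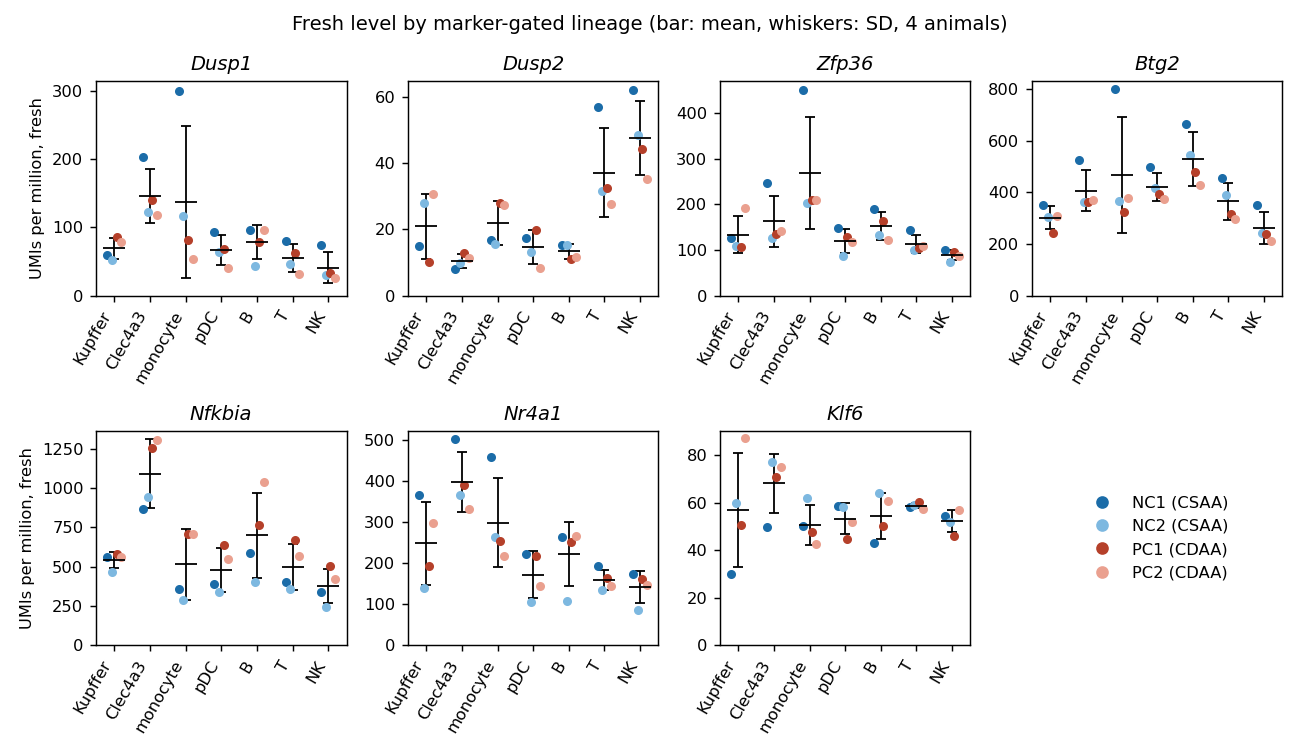
Fresh level of 7 genes, in CPM, in barcodes gated by 1 marker as Kupffer-like, Clec4a3 myeloid (Clec4a3), classical monocyte-like (monocyte), plasmacytoid dendritic-like (pDC), B-like, T-like and NK-like. Points are the 4 animals, bars the mean and whiskers the SD; Dusp2 peaks in NK-like barcodes (47.5) where Dusp1 is lowest (40.7), and Nfkbia peaks in Clec4a3 myeloid (1093).

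The rise of 4 genes after storage was seen in the barcodes of each gate. Dusp1, Zfp36, Btg2 and Klf6 were higher in the DMSO library in 4 of 4 animals in each of the 7 lineages. The genes were chosen with this change in view, and the gates split the same UMIs, so this is a description. The share of all genes with such a pattern was not counted. For Dusp1 the mean log2 ratio ran from 2.40 ± 0.65 in plasmacytoid dendritic-like (SD, n = 4 animals) to 3.26 ± 1.19 in Kupffer-like barcodes, and for Zfp36 from 1.16 ± 0.53 in classical monocyte-like to 1.85 ± 0.50 in Clec4a3 myeloid. The DMSO level of Dusp1 reached 1128 ± 577 CPM in Clec4a3 myeloid and 1060 ± 461 in classical monocyte-like barcodes, against 207 ± 58.1 in NK-like ones. Free RNA of the DMSO libraries held Dusp1 at 269 to 606 CPM, above that NK-like mean, and its part in the rise within each lineage was not tested. Btg2 had its smallest mean ratio in B-like barcodes (0.55 ± 0.27), where its fresh level was highest, and ratios above 1 in NK-like (1.08 ± 0.35) and Kupffer-like barcodes (1.17 ± 0.44). The mean ratio of Klf6 ran from 0.77 ± 0.25 in Clec4a3 myeloid and 0.85 ± 0.34 in B-like to 1.67 ± 0.40 in NK-like and 1.82 ± 0.32 in classical monocyte-like barcodes. By the panel gate, Dusp1, Zfp36 and Klf6 were again higher in every animal and lineage, and Btg2 in every lineage but the classical monocyte-like one, where 3 of 4 animals were higher.

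Dusp2 was lower in 4 of 4 animals in T-like (-0.62 ± 0.16) and B-like barcodes (-0.88 ± 0.79), and in 3 of 4 in NK-like ones (-0.63 ± 0.62). By the same gates, NK-like barcodes were 8.28% to 11.1% of fresh and 4.03% to 5.03% of DMSO barcodes in CSAA animals. In CDAA animals they were 7.95% to 10.9% and 7.67% to 14.3%. T-like barcodes were 9.79% to 11.2% and 13.1% to 14.1% in CSAA animals, and 2.04% to 4.71% and 3.37% to 5.06% in CDAA animals. By the panel gate NK-like barcodes were 487 of 4771 fresh and 371 of 3673 DMSO barcodes in NC1. In NC2 they were 198 of 4434 and 286 of 3676. They were 349 of 4327 and 333 of 4094 in PC1, and 378 of 4597 and 257 of 4481 in PC2. The NK-like shares thus depended on the gate. The part of the shares of NK-like and T-like barcodes in the level of Dusp2 per library was not tested. In the 3 myeloid-like lineages some libraries had 0 UMIs of Dusp2, so no mean ratio is given. The fitted log2 change of Dusp2 was 0.0006 (standard error 0.29) in Clec4a3 myeloid, -0.39 (0.45) in classical monocyte-like and -0.65 (0.67) in Kupffer-like barcodes. In plasmacytoid dendritic-like barcodes it was -0.31 (0.26). Nfkbia and Nr4a1 had mean log2 ratios near 0 in each lineage, from -0.11 to 0.37 and from -0.10 to 0.23. The ratios of Nr4a1 in Kupffer-like barcodes spread most, with an SD of 1.01 at 354 UMIs in all 8 libraries.

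Whether a lineage differed from the others in its response was tested for each of the 8 genes and 7 lineages, 56 combinations. None was called in edgeR (adjusted p 0.462 at the lowest, for Klf6 in Clec4a3 myeloid), 8 had an unadjusted p under 0.05, and DESeq2 called 0. The smallest adjusted p belonged to a difference of -0.75 (standard error 0.17). With no filter on low counts this Klf6 difference was called (-0.78, adjusted p = 0.00875, edgeR). With the panel gate the NK-like response was called larger for Btg2 (0.64, adjusted p = 0.00862) and Klf6 (0.72, adjusted p = 0.00862). Few genes of any kind were called here: 0.0393% of 7639 genes in Kupffer-like, 0.0131% in classical monocyte-like and 0.00% in each of the other 5 lineages.

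**Figure D4:**
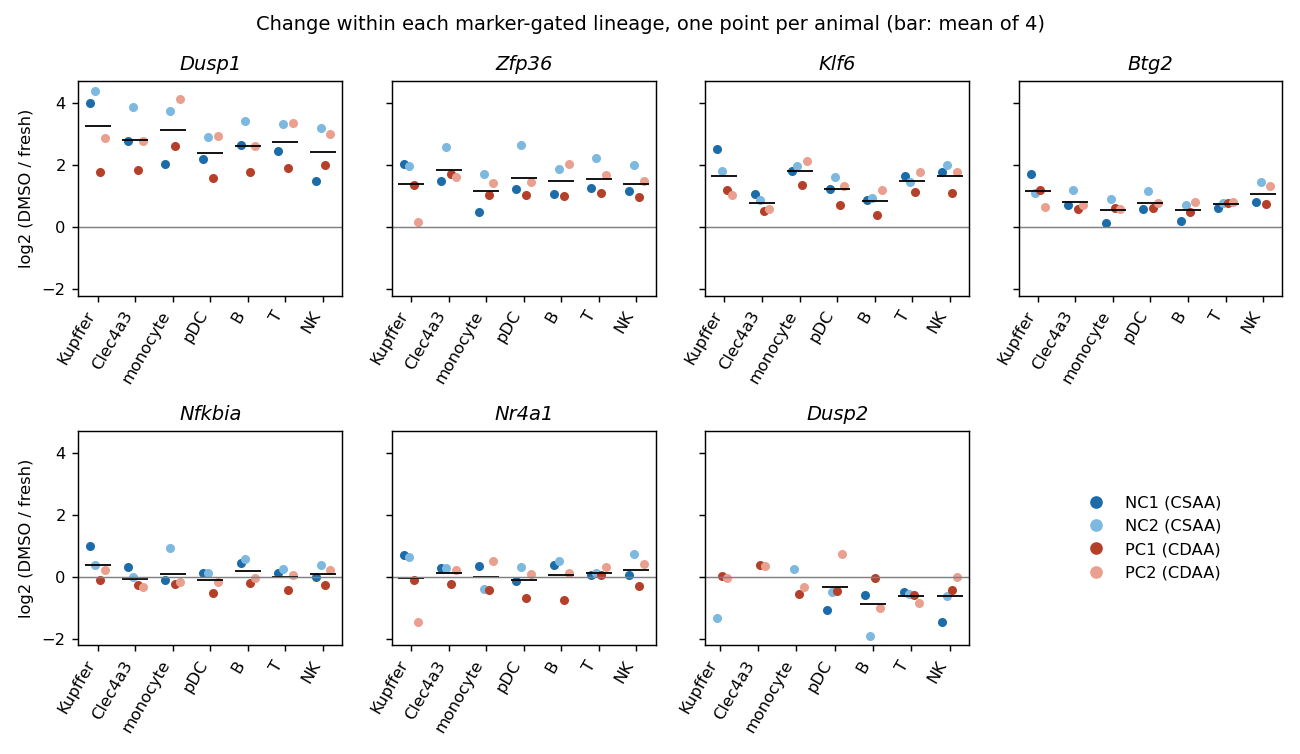
Log2 ratio of the DMSO to the fresh level within each lineage, 1 point per animal and a bar for the mean of 4, with lineages named as Kupffer-like, Clec4a3 myeloid, classical monocyte-like (monocyte), plasmacytoid dendritic-like (pDC), B-like, T-like and NK-like. Every point of Dusp1, Zfp36, Klf6 and Btg2 lies above 0, and Nfkbia and Nr4a1 scatter around it. A Dusp2 library without UMIs has no point, and no bar is drawn there. The genes were chosen with this change in view, so the points are a description.

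The diet was compared separately in fresh and in DMSO libraries. In fresh libraries Nfkbia was higher in CDAA than in CSAA animals, by 0.80 on the log2 scale (standard error 0.12, adjusted p = 0.0497, edgeR, 2 against 2 animals), and it was the 1 gene of the 8 that was called, where 1.18% of 11772 genes were. Its call rests on few animals: without PC1 or PC2 its adjusted p was 0.136 and 0.2299, with differences of 0.78 and 0.82. Without NC1, Nr4a1 was called as well (0.80, adjusted p = 0.0139, edgeR), and without NC2, Dusp1 (-0.80, adjusted p = 0.0107) and Btg2 (-0.65, adjusted p = 0.013998) were called lower. By the single marker, Clec4a3 myeloid barcodes, which had the most Nfkbia, were 2.77% to 3.65% of the barcodes in fresh CSAA and 8.16% to 8.53% in fresh CDAA libraries. By the panel gate they were 219 of 4771 and 258 of 4434 barcodes in the fresh CSAA libraries. In the fresh CDAA libraries they were 82 of 4327 and 59 of 4597, so that the order of the diets was reversed. The part of this share in the difference was not tested. Nfkbia was higher in both CDAA animals than in both CSAA animals within each of the 7 lineages, by 0.15 (Kupffer-like) to 1.14 (classical monocyte-like) on the log2 scale. In Clec4a3 myeloid barcodes it was at 868 and 943 CPM in the CSAA and at 1254 and 1307 in the CDAA animals. By the panel gate the same held in 6 of 7 lineages, while in Kupffer-like barcodes the CDAA animals were lower (368 and 394 against 598 and 717). All lineages come from the same fresh libraries, so they are no repeats of the comparison. The share of all genes that part the diets in this way was not counted, and nothing is read from these counts of lineages. Free RNA moved with the diet too: in fresh barcodes of 1 to 100 UMIs, Nfkbia was at 419 and 414 CPM in the CSAA and at 707 and 679 in the CDAA animals, and its part in the lineage values was not tested.

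In DMSO libraries none of the 8 genes was called between the diets (edgeR), where 0.642% of 11364 genes were, 3 had an unadjusted p under 0.05, as had 1661 of all genes, and DESeq2 called 0. The values of these 3 were a log2 difference of -0.74 for Dusp1 (adjusted p = 0.245), -0.48 for Btg2 (adjusted p = 0.166) and -0.44 for Zfp36 (adjusted p = 0.322). Nfkbia was at 0.26 (adjusted p = 0.411). The median of the 8 differences was -0.20 in fresh and -0.44 in DMSO libraries, beside -0.02 and -0.03 over all genes.

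An interaction term asked whether CSAA and CDAA animals took an unequal step from fresh to DMSO. None of the 8 genes was called, where 0.0329% of 12163 genes were, 2 had an unadjusted p under 0.05, as had 765 of all genes, and DESeq2 called 0. The smallest p was that of Nfkbia, with a difference of -0.52 (standard error 0.11, adjusted p = 0.249, edgeR). Without NC1, Zfp36 was called (-0.91, adjusted p = 0.0162, edgeR). Dusp2 had 0.45 (adjusted p = 0.668) and Nr4a1 -0.41 (adjusted p = 0.813).

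Other early response and feedback genes were set beside these in a list of 53, sorted by assigned role. The name feedback gene is that of the list, and whether each of its genes damps a response was not tested. Of these, 52 had a row and 48 were tested in the preservation comparison, with 10 called higher and 2 lower, against 4.32% and 3.92% of all genes. The list was drawn up with earlier results of these data known, so its counts are a description and no independent support. Their median log2 fold change was 0.17, beside 0.53 for the 8 genes and -0.0033 for all genes. Of the 10, 5 were higher by at least 2-fold. The fit without animals as a block called 1 gene of the list, and leaving out 1 animal called 6 (without NC2) to 12 genes (without NC1) higher and 2 lower. Of 7 other MAP kinase phosphatases tested, none was called by edgeR (1 had an unadjusted p under 0.05, and DESeq2 called 0), and their median was -0.18.

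Inhibitors of receptor signals had 3 called genes of 9, all higher. Rgs1, which shortens G protein signals in leukocytes, was at 50.6, 42.2, 65.0 and 88.4 CPM in the fresh libraries of NC1, NC2, PC1 and PC2 and at 87.9, 239, 156 and 368 in the DMSO libraries (log2 fold change 1.66, adjusted p = 0.00412, edgeR). It was higher in each animal, but the DMSO level of NC1 lay just below the fresh level of PC2. Rgs2, of the same family, went from 5.91 to 13.98 in fresh libraries to 23.4 to 44.7 in DMSO libraries (1.47, adjusted p = 0.0034). Trib1, a pseudokinase that directs proteins to degradation, had 1.11 (adjusted p = 0.00465). Among the immediate early response genes 5 of 11 were higher. Ppp1r15a, which reverses the translation block of stressed cells, was at 28.4 to 41.3 in fresh and 59.2 to 118 in DMSO libraries (1.40, adjusted p = 0.00155), and the growth arrest genes Gadd45a and Gadd45g had 0.88 (adjusted p = 0.00155) and 0.56 (adjusted p = 0.0132).

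Of the 2 relatives of Nr4a1, Nr4a2 was higher (1.79, standard error 0.44, adjusted p = 0.0376, edgeR), while Nr4a1 differed little. DESeq2 called neither of the 2 relatives. Nr4a2 was at 13.8, 3.33, 7.32 and 5.85 CPM in the fresh libraries of NC1, NC2, PC1 and PC2 and at 15.0, 42.4, 16.7 and 33.5 in the DMSO libraries, so that it hardly differed in NC1 and the groups did not overlap. In the group of 6 genes listed as NF-kB inhibitors, Nfkbiz was called higher (0.78, adjusted p = 0.0033, edgeR). That group name does not show that each of its genes inhibits NF-kB in these cells. Of the mRNA decay factors other than Zfp36 and Btg2, 1 of 7 was called by edgeR and it was lower, Btg1 (-0.32, adjusted p = 0.00747), the closest relative of Btg2. DESeq2 called 1 of these decay factors higher and 1 lower. Of the Krüppel-like factors other than Klf2 and Klf6, 1 of 6 was called and it was lower too, Klf3 (-0.42, adjusted p = 0.00465).

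**Figure D5:**
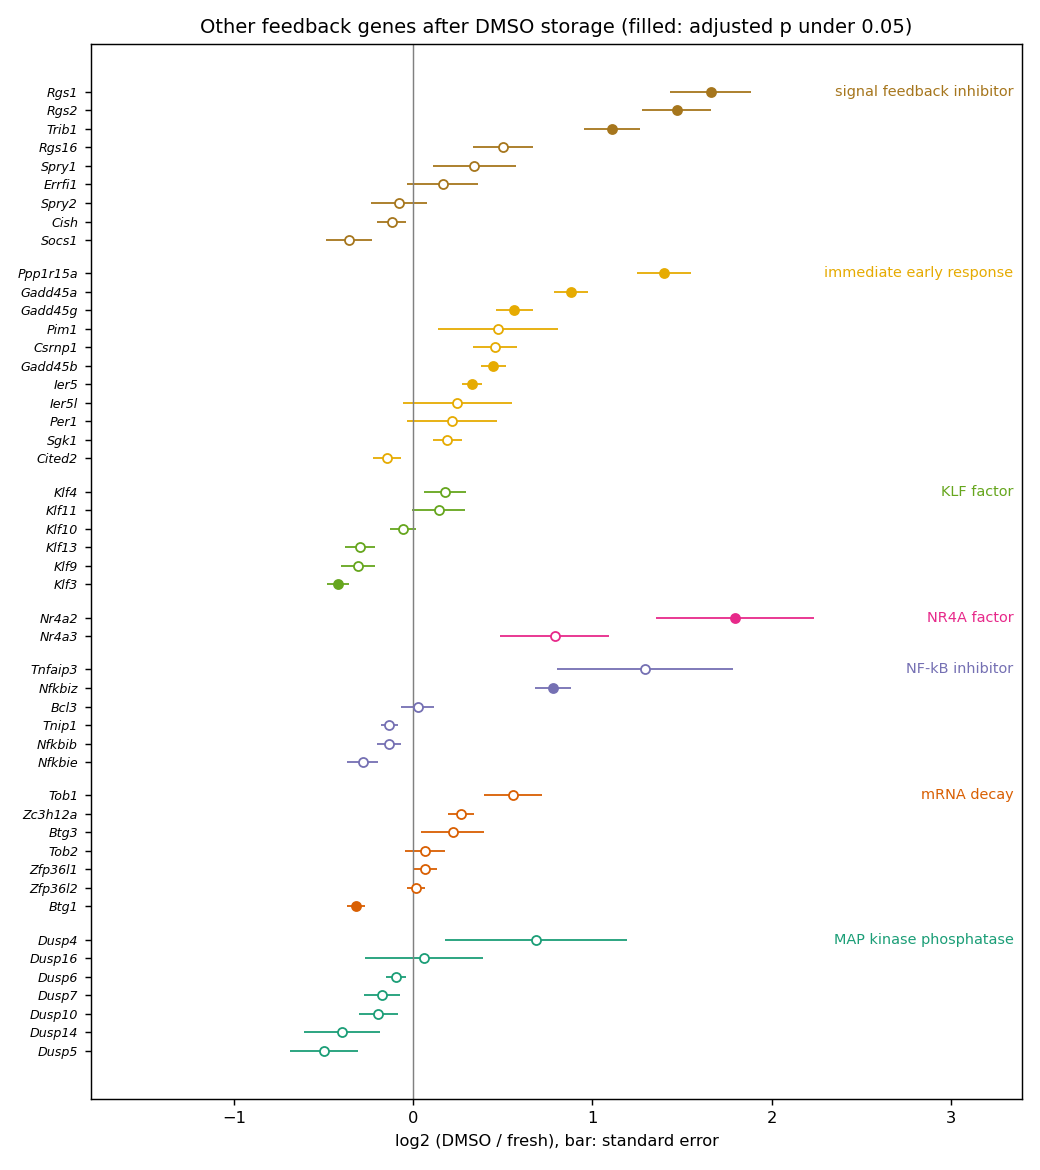
Log2 fold change after DMSO storage, with its standard error, of the 48 tested feedback genes outside the 10, grouped by role, with filled points for an adjusted p under 0.05. Filled points to the right include Nr4a2 (1.79), Rgs1 (1.66), Rgs2 (1.47) and Ppp1r15a (1.40), those to the left Klf3 (-0.42) and Btg1 (-0.32), and no MAP kinase phosphatase is filled.

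Genes that vary most like the summed 9 genes were sought over 56 sums, 8 libraries by 7 lineages, among 5985 other genes. The closest were Rhob, an early response GTPase (Pearson's r = 0.849), Ppp1r15a (0.843), AC120246.2 (0.841), Junb (0.835) and Nfkbiz (0.822). Fos had 0.703, Jun 0.693 and Fosb 0.617, which places them at ranks 11, 14 and 21. The points share libraries, animals and depth, so these values are a description.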

How the data were processed

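Immune cells were released from liver by filtration, red cells were lysed, and density separation and the Chromium 3′ v2 kit followed. The authors processed reads with Cell Ranger 2.1.1 against a rat reference with Ensembl annotation, and deposited unfiltered UMI counts per gene and barcode without normalization. Barcodes with at least 500 UMIs were kept and summed per library, or per library and lineage. The totals are the depth given in the text, and a low total limits what can be seen for rare transcripts. No doublet caller was run, but barcodes over 3 times the median were left out in an alternative.

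Sums were tested with edgeR 4.0.16 in R 4.3.3 (TMM, filterByExpr, quasi-likelihood test, Benjamini-Hochberg over all genes tested, adjusted p under 0.05), with the animal as a block except between diets. Fresh and DMSO libraries with the same label number come from the same animal. Their deviations from the group means correlated by 0.451 to 0.618, against -0.459 to 0.257 between animals. Each of the 8 libraries is a sample, so that p-values between diets rest on 2 animals each. Fits were tested on simulated data. Other steps used Python 3.11.15, numpy 2.4.6, scipy 1.17.1 and pandas 2.3.3. Lineage levels are CPM of the lineage's sum, without TMM. Thinning used the expected share under draws without replacement.

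The genes and all lists were chosen with earlier results of these data known. Named were the 10 genes, at most the 3 called genes of each role group with the largest change, the 5 genes most alike over lineages and libraries, and Fos, Fosb and Jun. Alternatives were DESeq2 1.42.0 and its size factors, no count filter, a minimum of 1000 UMIs, a limit of 20% mitochondrial UMIs, no replicate block, each animal left out, other gates, and thinning to 500 UMIs. The panel gate was added after the data had been seen.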

Additional observations from a re-analysis of the deposited data

How the results depend on the processing

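Dusp1, Zfp36, Btg2 and Klf6 stayed higher and Dusp2 lower after storage under each of the 12 settings tried on them, the main one included, with log2 fold changes of 2.34 to 2.83, 1.29 to 1.66, 0.71 to 0.92, 1.19 to 1.46 and -0.52 to -0.32. Without the replicate block, calls among the other feedback genes went from 12 to 1 and those between lineages from 27 to 14, while none of the responses by lineage was called in either fit. With at least 2-fold as well, 5 of the 12 were called. Leaving out each animal gave 8 to 14 calls among the other feedback genes, 0 to 3 between diets in fresh libraries, 0 to 1 for the interaction, 19 to 23 between lineages and 0 for the response by lineage. The gate of at least 2 UMIs gave 11 calls between lineages, and only 17 of the 27 calls had a value there. The response by lineage had 1 call with no filter on low counts and 2 with the panel gate, added after seeing the data. The cause of these shifts was not tested. In all, 59 of 70 counts of calls stayed within 1.5 times the count given in the text, and 11 moved. The 59 include counts of 0 that stayed at 0, which say nothing on the stability of a call. Depth limits Klf2 and, within myeloid-like gates, Dusp2 and Ier3.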
